A study of Mus musculus with 10 samples.

Results

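The 9 genes described here, Spp1, Tnc, Postn, Thbs1, Thbs2, Sparc, Sparcl1, Tgfbi and Fstl1, encode matricellular proteins and were taken by name from the 24538 genes counted in each library. RNA was sequenced in 10 libraries of mouse cells sorted as CD31+/CD45-, 5 from normal lung and 5 from lung metastases. CD31, the product of Pecam1, is a surface protein of endothelium, platelets and some leukocytes, and CD45, the product of Ptprc, marks leukocytes in general. All mice carried the wild type genotype on the C57BL6/J background and had a labelled age of 8 to 10 weeks. For the metastasis group, cells of E0771-LG, a mammary tumour line of the same strain, had been given through the tail vein to females 6 to 8 weeks old. Metastases below 1 mm across were picked under a dissection microscope, and each pool drew on 2 to 4 mice. Normal lungs were handled in parallel, and both tissues were digested for 30 min at 37 °C in the presence of transcription inhibitors. Because cells were sorted on 2 surface proteins only, the libraries can hold RNA of other cells with those surface features.

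Matricellular proteins are secreted into the extracellular matrix, where they act on cells through integrins and other receptors and bind growth factors, rather than serving mainly as structural fibres. Several are low in resting adult tissue and are produced during wound repair, inflammation and tumour growth. In metastasis research, periostin (Postn), tenascin-C (Tnc) and osteopontin (Spp1) are known as matrix proteins of the niche in which disseminated tumour cells grow, and thrombospondin-1 (Thbs1) as a protein that restrains angiogenesis.

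The genome stretches before the start sites of the 3 members with the largest rises, Spp1, Tnc and Tgfbi, are shown because of those rises. They come from the RefSeq promoter table (build GRCm38.p6) and end at the last base before both the RefSeq start and the GENCODE M21 gene start. Each is written 5′ to 3′ on the strand of the gene. Capitals mark matches, on either strand, to 5 short motifs that were searched: TATAAA, known as the TATA box, the CCAAT box, GGGCGG, known as the GC box, TGANTCA, the AP-1 motif, and TGTGGT, the RUNX core. No match overlapped another. The Spp1 stretch (chr5:104434861-104435110, plus strand) has 250 bases, the Tnc stretch (chr4:64047016-64047265, minus strand) 250 and the Tgfbi stretch (chr13:56609336-56609522, plus strand) 187.
Spp1: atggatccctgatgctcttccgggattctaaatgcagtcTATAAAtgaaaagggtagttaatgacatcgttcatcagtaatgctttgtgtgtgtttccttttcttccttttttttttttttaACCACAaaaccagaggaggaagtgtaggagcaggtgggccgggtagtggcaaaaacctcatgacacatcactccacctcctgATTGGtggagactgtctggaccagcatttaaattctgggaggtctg
Tnc: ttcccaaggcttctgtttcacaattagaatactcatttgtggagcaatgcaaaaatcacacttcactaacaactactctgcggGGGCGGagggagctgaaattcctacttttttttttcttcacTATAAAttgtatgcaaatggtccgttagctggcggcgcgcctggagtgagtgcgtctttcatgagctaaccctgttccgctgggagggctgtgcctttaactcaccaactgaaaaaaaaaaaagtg
Tgfbi: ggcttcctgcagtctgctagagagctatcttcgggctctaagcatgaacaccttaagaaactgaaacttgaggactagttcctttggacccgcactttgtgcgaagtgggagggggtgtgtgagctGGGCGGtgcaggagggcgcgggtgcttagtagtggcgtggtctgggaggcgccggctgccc
Counted from the RefSeq start, with upstream bases negative, Spp1 held TATAAA at -211 and, on the reverse strand, TGTGGT at -128 and CCAAT at -46. Tnc held GGGCGG at -167 and TATAAA at -126, and Tgfbi held GGGCGG at -124. Thus the 3 stretches shared no single motif of the 5, and TGANTCA was in none of them. Among 32851 windows of 300 bases in the table, 13.6% held TATAAA, 37.4% CCAAT, 35.7% GGGCGG, 7.81% TGANTCA and 16.8% TGTGGT. The table matched 7 of the 9 members, all but Thbs1 and Sparcl1.

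In the counts, 4 members rose in metastases: Spp1, Tnc, Tgfbi and Fstl1. Spp1, Tnc and Tgfbi went from low levels in normal lung to levels that were 68.5- to 83.0-fold higher, and Fstl1 rose 6.28-fold. The size depends on the scale for genes this low: limma on log2(FPKM + 1) gave log2 fold changes of 5.90 for Spp1, 4.04 for Tnc and 3.42 for Tgfbi, against 6.38, 6.22 and 6.10 in the counts. Of the other members, Thbs1, Sparc, Sparcl1 and Postn did not pass the test, and Thbs2 did not pass the filter on low counts. The test was edgeR's quasi-likelihood F test on all 11823 genes that passed the filter on low counts, with Benjamini-Hochberg adjustment and a threshold of 0.05. Of all tested genes, 12.0% were called higher and 8.22% lower in metastases. Against this background, 4 of the 8 tested members were higher and 0 lower. These 4 were also called higher under all 24 other settings tried. The median log2 fold change was 2.44 over the 8 tested members and 0.06 over all tested genes. In each of the 4 risen genes all 5 metastasis libraries lay above all 5 normal libraries, a pattern seen in 8.50% of tested genes (the opposite order in 6.17%). These libraries measure bulk RNA, so a larger share of cells of one type and more RNA per cell cannot be told apart.

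**Figure D1:**
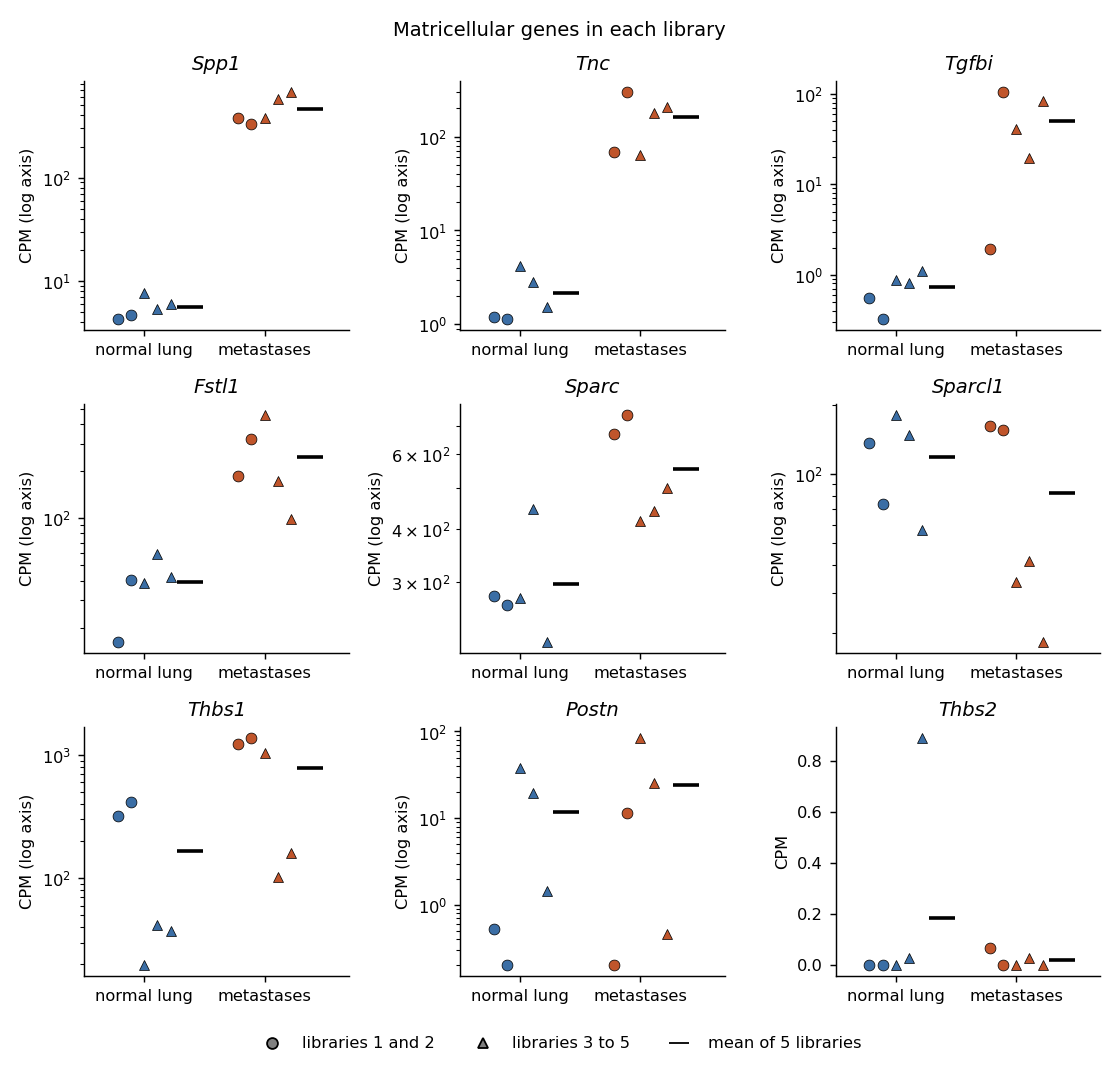
Level in TMM-scaled CPM of the 9 genes in each library, on log axes except for Thbs2 (linear axis), in normal lung (blue) and metastases (orange); circles are libraries 1 and 2, triangles libraries 3 to 5, and bars the mean of 5 libraries. Spp1, Tnc, Tgfbi and Fstl1 show no overlap between the groups, while Thbs1, Sparc, Sparcl1 and Postn do.

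Spp1 encodes osteopontin, a secreted phosphoprotein that binds integrins and CD44 and is made by bone cells, macrophages and many tumour cells. The gene lies at chr5:104435118-104441050 on the plus strand (GRCm38). It measured 4.29, 4.70, 7.69, 5.37 and 6.02 CPM in normal replicates 1 to 5 and 379, 332, 380, 571 and 668 CPM in metastasis replicates 1 to 5 (CPM here are counts scaled to library size by TMM). The lowest metastasis library was thus far above the highest normal one, and the spread within each group was small beside the gap. The mean was 5.61 ± 1.34 CPM in normal lung and 466 ± 146 CPM in metastases (SD, n = 5 each). The log2 fold change was 6.38 ± 0.48 (SE; edgeR adjusted p = 4.42e-09), or 83.0-fold. It was 6.32 ± 0.90 (SE) in the first 2 libraries of each group and 6.39 ± 0.51 (SE) in the other 3, sets that are described further on. Among the 24460 genes of the authors' FPKM table, Spp1 ranked between 5811 and 7443 in the normal libraries and between 49 and 159 in the metastasis libraries.

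Tnc encodes tenascin-C, a large hexameric glycoprotein of embryonic, wounded and tumour matrix. It occupies chr4:63959785-64047015 on the minus strand. It measured 1.21, 1.14, 4.19, 2.84 and 1.54 CPM in normal replicates 1 to 5 and 68.4, 295, 64.3, 177 and 205 CPM in metastasis replicates 1 to 5. Metastasis replicates 1 and 3 held the lower values and replicate 2 the highest. The log2 fold change was 6.22 ± 0.72 (SE; edgeR adjusted p = 1.69e-06), or 74.3-fold, between means of 2.18 ± 1.31 and 162 ± 97.7 CPM (SD, n = 5 each).

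Tgfbi encodes transforming growth factor beta-induced protein, a fasciclin-domain protein that binds collagens and integrins, and is a relative of periostin. Its position is chr13:56609523-56639562 on the plus strand. It measured 0.551, 0.323, 0.871, 0.808 and 1.11 CPM in normal replicates 1 to 5 and 1.93, 104, 41.4, 19.5 and 84.3 CPM in metastasis replicates 1 to 5. The libraries of metastases were uneven: replicate 1, with 57 counts, lay just above the normal range and the other 4 far above it. The 95% exact binomial interval of that library was 1.30 to 2.23 CPM of unscaled gene counts. Its lower end overlapped the interval of normal replicate 5 (0.708 to 1.34 CPM). Such overlap does not decide the order of these 2 libraries, and their difference was not tested. The log2 fold change was 6.10 ± 1.08 (SE; edgeR adjusted p = 0.000303), or 68.5-fold, between means of 0.732 ± 0.303 and 50.2 ± 43.0 CPM (SD, n = 5 each). With few counts in normal lung, the widest such interval of a library reached 39.8% of the level, averaged over its 2 sides (27 counts, normal replicate 2).

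Fstl1 encodes follistatin-like 1, a secreted glycoprotein with a SPARC-like calcium-binding part that is made by many mesenchymal cells. Its position is chr16:37776873-37836514 on the plus strand. It measured 16.2, 40.2, 38.4, 59.5 and 41.9 CPM in normal replicates 1 to 5 and 185, 322, 455, 172 and 99.1 CPM in metastasis replicates 1 to 5. The lowest value was in normal replicate 1 and the highest in metastasis replicate 3. The mean rose from 39.3 ± 15.4 to 247 ± 142 CPM (SD, n = 5 each), with a log2 fold change of 2.65 ± 0.51 (SE; edgeR adjusted p = 0.000649).

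Sparc encodes osteonectin, a collagen-binding glycoprotein of basement membranes that endothelial cells also secrete, and Sparcl1 its close relative SPARC-like 1 (hevin), a counter-adhesive protein found in blood vessels. Sparc (chr11:55394500-55423183, minus strand) measured 277, 264, 274, 446 and 216 CPM in normal replicates 1 to 5 and 669, 741, 417, 441 and 500 CPM in metastasis replicates 1 to 5. Only normal replicate 4 reached into the metastasis range. The log2 fold change was 0.91 ± 0.35 (SE; edgeR adjusted p = 0.0741), which did not pass. Sparcl1 (chr5:104079111-104113733, minus strand, 321 kb from Spp1) measured 137, 74.1, 181, 148 and 56.5 CPM in normal replicates 1 to 5 and 163, 156, 33.6, 41.4 and 18.3 CPM in metastasis replicates 1 to 5. Metastasis replicates 1 and 2 lay within the normal range and replicates 3, 4 and 5 below it. Its log2 fold change was -0.53 ± 0.59 (SE; edgeR adjusted p = 0.591), and its sign was positive when libraries were scaled to endothelial genes (1.57, adjusted p = 0.0538).

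The ratio of Sparcl1 to Sparc within a library does not depend on scaling between libraries. On the log2 scale of counts (with 2 added to each) it was -1.02, -1.83, -0.6, -1.59 and -1.94 in normal replicates 1 to 5 and -2.04, -2.25, -3.63, -3.41 and -4.77 in metastasis replicates 1 to 5. All metastasis libraries lay below all normal ones. The means were -1.40 ± 0.57 and -3.22 ± 1.11 (SD, n = 5 each), a difference of -1.82 (two-sided exact permutation p = 0.00794, the smallest that 5 against 5 allows, and 0.0238 after Benjamini-Hochberg adjustment over 3 ratios). Thus Sparcl1 was lower relative to Sparc in metastases, although neither gene passed the test by itself. When a normal library was left out, the adjusted exact p ranged from 0.0714 to 0.119, whichever of replicates 1 to 5 it was, with a difference of -1.96 to -1.62. The Postn to Tgfbi ratio, between related fasciclin-domain proteins, averaged 1.92 in normal lung and -2.40 in metastases (two-sided exact permutation p = 0.0714, adjusted 0.107). The Thbs2 to Thbs1 ratio differed by -2.56 (two-sided exact permutation p = 0.198, adjusted 0.198), and with Thbs2 near the floor it was not read further.

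Thbs1 encodes thrombospondin-1, a trimeric glycoprotein that binds CD36 and CD47, can activate latent TGF-beta and is stored in platelet granules. The gene lies at chr2:118111876-118127133 on the plus strand. It measured 320, 419, 19.8, 41.6 and 37.1 CPM in normal replicates 1 to 5 and 1240, 1370, 1040, 102 and 161 CPM in metastasis replicates 1 to 5. Normal replicates 1 and 2 were thus higher than metastasis replicates 4 and 5, and the groups overlapped. The log2 fold change was 2.22 ± 0.82 (SE; edgeR adjusted p = 0.0652). Without normal replicate 2 it was 2.87 (adjusted p = 0.0195) and without metastasis replicate 4 it was 2.52 (adjusted p = 0.0252), so leaving out either library brought the gene past the threshold.

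Libraries 1 and 2 of both groups had a higher share of counts on Rn45s, the ribosomal RNA precursor, than libraries 3 to 5. They stood clearly apart only in normal lung. It took 2.83 to 3.51% of gene counts in normal replicates 1 and 2 against 0.408 to 0.469% in normal replicates 3 to 5. In metastases it took 1.45 and 4.61% in replicates 1 and 2 against 0.647 to 1.24% in replicates 3 to 5, so replicate 1 lay close to the latter. Libraries 1 and 2 of both groups also stand together, ahead of the others, among the columns of the authors' FPKM table. What the sets are is not given in the sources used here. With group as a term, Thbs1 was higher in libraries 1 and 2 by 2.60 ± 0.54 on the log2 scale (SE; edgeR adjusted p = 0.0309), a call made for 0.541% of tested genes. The other 7 tested members did not pass it. With a term for the set, the log2 fold change of Thbs1 between groups was 2.97 ± 0.56 (SE; edgeR adjusted p = 0.000531). Within the sets it was 1.83 ± 0.59 (adjusted p = 0.0612) in libraries 1 and 2 and 3.70 ± 0.80 (adjusted p = 0.00937) in libraries 3 to 5. In 1 fit over all libraries, the interaction of group and set, the set 1 and 2 minus the set 3 to 5, was -1.90 ± 0.95 for Thbs1 (edgeR adjusted p = 0.551).

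The fitted log2 fold change of Sparcl1 differed in sign between the sets, but neither value passed. It was 0.62 ± 0.78 (SE; edgeR adjusted p = 0.719), smaller than its error, in libraries 1 and 2. In libraries 3 to 5 it was -2.06 ± 0.66 (adjusted p = 0.0501). The interaction for Sparcl1 in the fit over all libraries was 2.64 ± 0.99 (edgeR adjusted p = 0.421), which did not pass. Tnc, Tgfbi and Fstl1 passed in both sets. For Tnc the log2 fold change was 7.29 ± 1.19 and 5.69 ± 0.80, for Tgfbi 6.93 ± 1.95 and 5.69 ± 1.08, and for Fstl1 3.18 ± 0.84 and 2.36 ± 0.61 (SE; edgeR, libraries 1 and 2 first). The interaction of group and set passed for 0 of the 8 tested members (edgeR adjusted p from 0.421 to 0.98), as for 0 of all tested genes (0.00%), of which 1103 had an unadjusted p under 0.05.

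**Figure D2:**
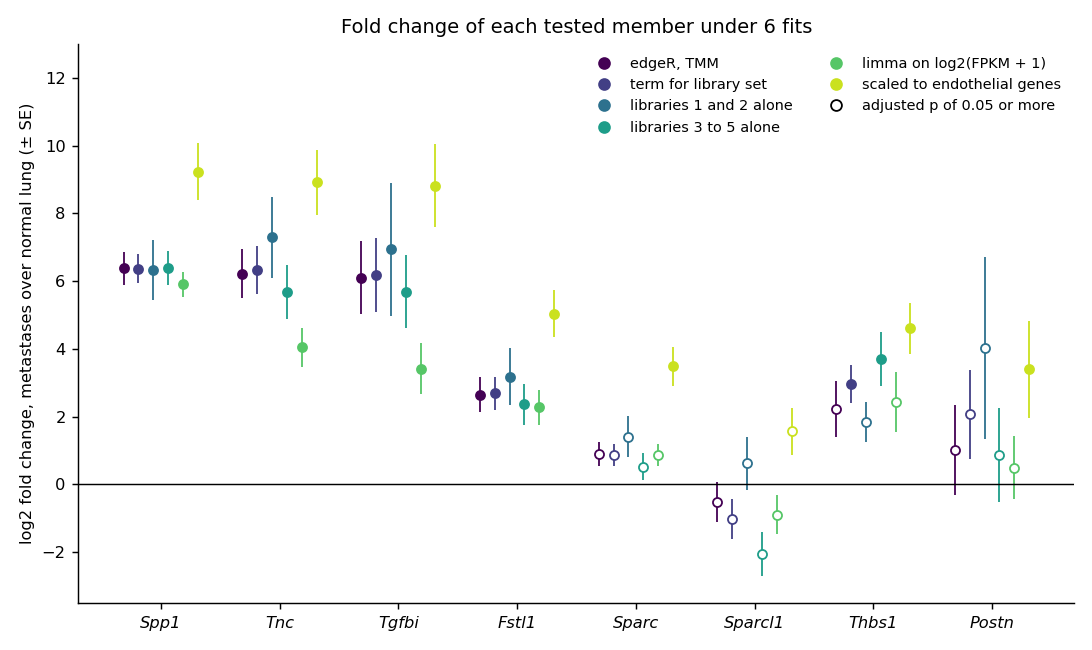
Log2 fold change of each tested member, metastases over normal lung, with its standard error, under 6 fits (colours); open symbols have an adjusted p of 0.05 or more. Spp1, Tnc, Tgfbi and Fstl1 are filled under all 6, Thbs1 is 1.83 to 4.61 and filled under 3, and Sparcl1 changes sign between libraries 1 and 2 (0.62) and libraries 3 to 5 (-2.06).

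Platelet genes were high in several of the libraries that were high in Thbs1. The summed level of 9 platelet and megakaryocyte markers was 457.4, 1480, 209.2, 339.2 and 234.7 CPM in normal replicates 1 to 5 and 14030, 3830, 2005, 1158 and 975.3 CPM in metastasis replicates 1 to 5. Within metastases, replicates 1, 2 and 3 had both the higher Thbs1 values and the higher platelet sums. Of 8 tested markers 3 rose and 0 fell, among them the platelet chemokines Ppbp (log2 fold change 3.27 ± 0.71, edgeR adjusted p = 0.00289) and Pf4 (3.95 ± 0.97, adjusted p = 0.00503), while the integrin chain Itgb3 did not pass (2.44 ± 0.87, adjusted p = 0.0542). Among all tested genes the shares called were 12.0% higher and 8.22% lower. None of the 9 platelet markers was at 0 in all libraries of a group. Normal replicate 1 had 320 CPM of Thbs1 with a platelet sum of 457.4 CPM, whereas metastasis replicate 4 had 102 CPM with a sum of 1158 CPM. The part of platelet RNA in the Thbs1 values was not tested.

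**Figure D3:**
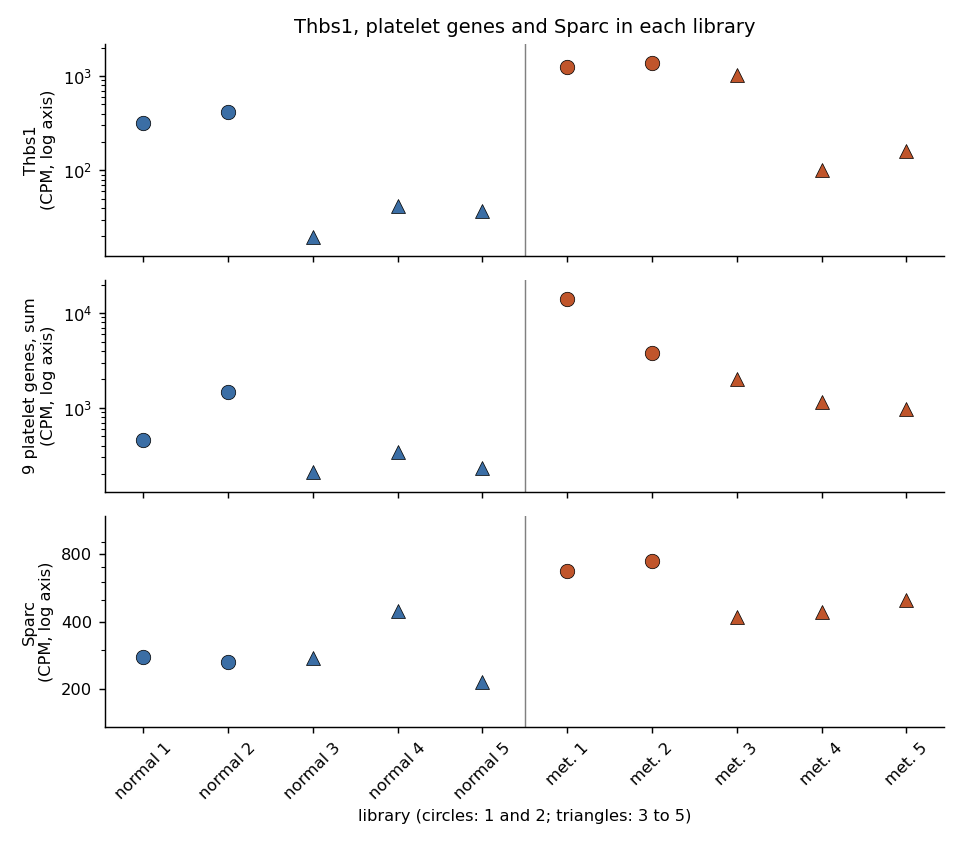
Level of Thbs1 (top), the sum of 9 platelet genes (middle) and Sparc (bottom) in each of the 10 libraries, in CPM on log axes; circles are libraries 1 and 2, triangles libraries 3 to 5. Thbs1 is high in normal replicates 1 and 2 and in metastasis replicates 1 to 3, the platelet sum is highest in metastasis replicate 1 (14030 CPM), and Sparc stays between 216 and 741 CPM.

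Postn encodes periostin, a fasciclin-domain protein made mainly by fibroblasts that binds collagen and integrins. It occupies chr3:54361109-54391037 on the plus strand. It measured 0.521, 0.203, 37.9, 19.6 and 1.46 CPM in normal replicates 1 to 5 and 0.203, 11.5, 83.6, 25.3 and 0.458 CPM in metastasis replicates 1 to 5. Both groups held libraries with hardly any Postn and libraries with much of it. The log2 fold change of 1.02 ± 1.32 (SE; edgeR adjusted p = 0.652) was smaller than its error, and without metastasis replicate 3 it was -0.41 (adjusted p = 0.879). The level in metastasis replicate 1 rests on 6 counts. Its 95% exact binomial interval reached 90.5% of the level, averaged over the lower and upper sides.

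Thbs2 encodes thrombospondin-2, an anti-angiogenic relative of Thbs1 made chiefly by mesenchymal cells. The gene lies at chr17:14665500-14694235 on the minus strand. Counts were 0, 0, 0, 1 and 33 in normal replicates 1 to 5 and 2, 0, 0, 1 and 0 in metastasis replicates 1 to 5. All but normal replicate 5 were at or below 2 counts. With no filter on low counts the log2 fold change was -3.12 (edgeR adjusted p = 0.348), a value that rests on normal replicate 5, and DESeq2 gave -3.14 with no adjusted p. A library with 0 counts allows a level of up to 0.0376 to 0.138 CPM of unscaled gene counts (3 counts).

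Levels of different genes were compared in the authors' FPKM, which divide by transcript length. In normal lung the median order was Sparc (119 FPKM, range 113 to 242), Sparcl1 (44.5, range 22.0 to 75.2), Fstl1 (10.9, range 4.59 to 17.5), Thbs1 (8.97, range 4.40 to 80.5) and Spp1 (4.62, range 3.12 to 6.63). Postn (0.616 FPKM, range 0.0815 to 12.2), Tgfbi (0.531, range 0.138 to 0.72), Tnc (0.396, range 0.207 to 0.927) and Thbs2 (listed at 0, range 0 to 0.187) followed. Sparc lay above Sparcl1 and Sparcl1 above Fstl1 without overlap, while from Fstl1 to Tnc each gene overlapped the next. Thbs1 and Postn had the widest ranges: Thbs1 reached into that of Sparcl1 and Postn into those of Spp1, Thbs1 and Fstl1. In metastases the order began with Spp1 (349 FPKM, range 208 to 461), Sparc (245, range 202 to 332) and Thbs1 (214, range 18.7 to 255), which overlapped. Fstl1 (48.1 FPKM, range 22.9 to 152), Tnc (33.4, range 9.5 to 42.9), Tgfbi (22.4, range 1.04 to 38.6), Sparcl1 (16.2, range 6.71 to 61.4) and Postn (3.14, range 0.0898 to 26.0) came next, each overlapping its neighbours. Spp1 thus moved from the fifth place among the members to the first.

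The genes of most similar pattern were taken as those with the smallest root-mean-square difference of centred log2 CPM over the 10 libraries, a description that the difference between groups dominates. For Spp1 they were Psat1 (0.27), a serine synthesis enzyme, Vcan (0.286), the matrix proteoglycan versican, and Prrx1 (0.308), a mesenchymal transcription factor. For Tnc they were Lamb1 (0.358), a laminin chain, and Dusp9 (0.431), a phosphatase. For Tgfbi the nearest were Tenm4 (0.534), Dkk2 (0.63), a secreted Wnt antagonist, and Egln3 (0.65), an oxygen-sensing hydroxylase. For Fstl1 they were Gsr (0.49), G2e3 (0.537) and Cdk6 (0.589), a cell cycle kinase. For Sparc they were Ugp2 (0.25), Rrn3 (0.257) and Dnmt1 (0.28), and for Sparcl1 Nlgn2 (0.29), Slc44a1 (0.466) and Rbmx (0.486). For Thbs1 the nearest were Fyb (0.639), an adaptor protein of T cells and platelets, Smtn (0.752) and Gas2l1 (0.76). Postn had no near gene, since the closest, Lekr1, was 1.55 away, ahead of Epb41l4b (1.66). Among the members, Spp1 and Tnc were the closest pair (0.712).

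Genes for receptors of these proteins moved in both directions. Of all tested genes 12.0% were called higher and 8.22% lower. Of 25 listed receptors 20 could be tested, of which 7 rose, 4 fell and 9 did not pass, with a median log2 fold change of 0.75. The largest rises were in Lrp1, an endocytic receptor that clears thrombospondins (3.78 ± 0.685 to 296 ± 114 CPM; log2 fold change 6.29 ± 0.53, edgeR adjusted p = 1.34e-08), and in Ddr2, a collagen receptor (7.28 ± 6.83 to 451 ± 204 CPM; 5.95 ± 0.60, adjusted p = 2.41e-07). The largest falls were in Cd36, a receptor of Thbs1 and fatty acids (3341 ± 675 to 692 ± 558 CPM; -2.27 ± 0.46, adjusted p = 0.00109), and in Itga3, an integrin chain (549 ± 342 to 166 ± 154 CPM; -1.73 ± 0.54, adjusted p = 0.0257). The remaining called genes were singled out after their values were seen. Cd44, a receptor of Spp1, rose from 74.2 to 1152 CPM (3.96 ± 0.46, adjusted p = 1.69e-06), and Itgav, an integrin chain shared by receptors of Spp1, Tnc, Postn and Tgfbi, rose by 1.78 ± 0.45 (adjusted p = 0.00592). Egfr (5.23, adjusted p = 0.000198), Sdc1 (3.99, adjusted p = 0.0146) and Itga5 (1.87, adjusted p = 0.0177) also rose. Cd47, a second receptor of Thbs1 (-1.49, adjusted p = 0.0112), and Stab1, a scavenger receptor of Sparc (-1.71, adjusted p = 0.0333), fell. Only 2 receptors were called lower without normal replicate 1, normal replicate 2 or metastasis replicate 3, 4 or 5, and none was when libraries were scaled to endothelial genes.

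Matrix proteins and growth factors that the members bind were mostly higher. The shares over all tested genes were 12.0% higher and 8.22% lower. Of 22 listed genes 18 could be tested, of which 12 rose, 0 fell and 6 did not pass, with a median log2 fold change of 2.76. The largest rises were in Col6a1, a collagen VI chain (0.645 ± 0.0483 to 49.4 ± 25.2 CPM; log2 fold change 6.25 ± 0.95, edgeR adjusted p = 5.57e-05), and in Dcn, the proteoglycan decorin (0.824 ± 0.625 to 39.2 ± 33.7 CPM; 5.57 ± 1.09, adjusted p = 0.000758). Singled out after their values were seen, Fn1 (fibronectin) rose by 4.19 ± 0.68 (adjusted p = 0.000109), whereas the basement membrane collagens Col4a1 (-0.79 ± 0.42, adjusted p = 0.199) and Col4a2 (-1.11 ± 0.46, adjusted p = 0.0896) did not pass. Of 32 other matricellular genes 11 were at 0 in every library and 10 could be tested. Among them 1 rose, Wisp3, a CCN family member (6.69 ± 1.64, adjusted p = 0.00503), with 66.5 CPM in metastasis replicate 1 and 0.0581 CPM in replicate 4. The 2 that fell were Tnxb, the tenascin-X gene (-2.58 ± 0.83, adjusted p = 0.0288), and Hmcn1, the gene of hemicentin-1 (966 ± 201 to 148 ± 148 CPM; -2.70 ± 0.53, adjusted p = 0.000746). The median log2 fold change of the 10 was -0.13. The 1 of 10 called higher was near the 12.0% over all tested genes, and 2 of 10 were lower against 8.22%.

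**Figure D4:**
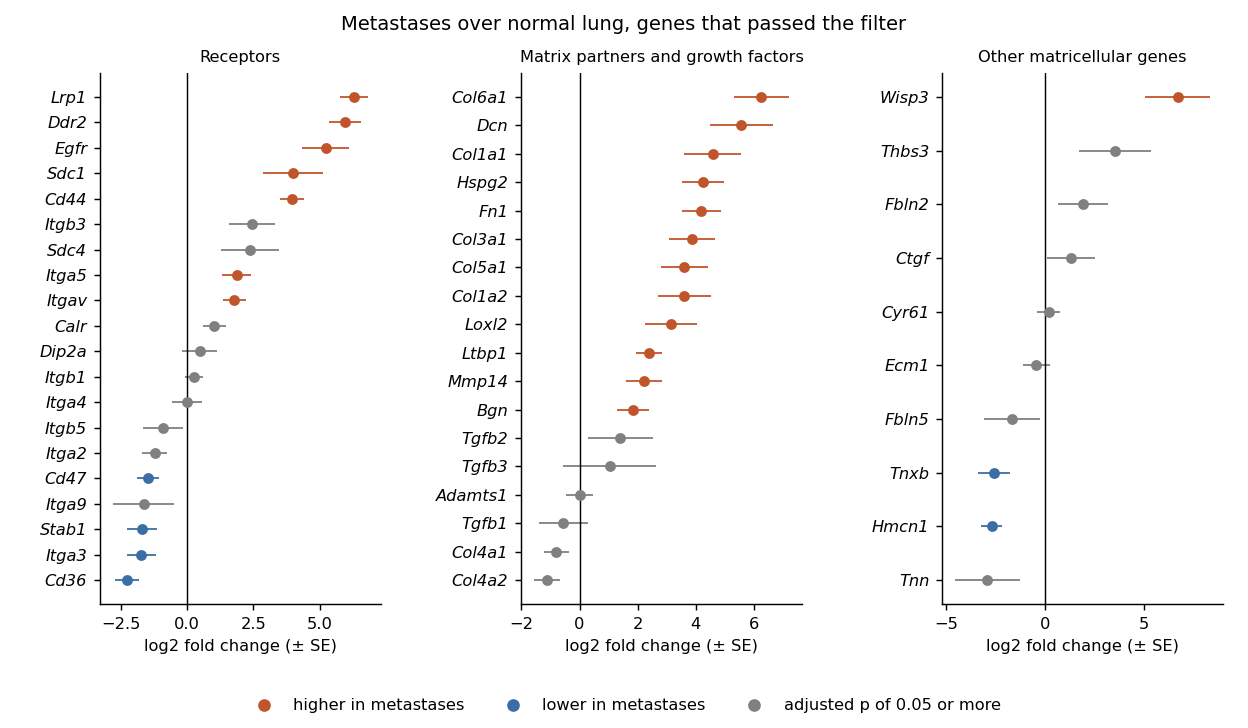
Log2 fold change with its standard error, metastases over normal lung, for the tested genes of 3 lists: receptors of the members (left), matrix partners and growth factors (middle) and other matricellular genes (right); orange passed as higher, blue as lower and grey did not pass. Lrp1 (6.29) and Cd36 (-2.27) bound the receptors, 12 of 18 matrix partners are orange, and 7 of 10 other matricellular genes are grey.

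Markers of cell types moved with the same groups, beside shares over all tested genes of 12.0% higher and 8.22% lower. All 19 pan-endothelial markers were tested, of which 15 fell and 0 rose. Their summed level ran from 12630 to 24940 CPM in normal lung and from 1176 to 7697 CPM in metastases, with no marker at 0. Pecam1 itself fell from 2415 to 644 CPM (log2 fold change -1.91 ± 0.47, edgeR adjusted p = 0.00549), as did Cdh5 (VE-cadherin; -2.18 ± 0.45, adjusted p = 0.00117). The largest falls of the list were in the junction gene Cldn5 (-3.75 ± 0.68, adjusted p = 0.000361) and the transcription factor Sox18 (-3.60 ± 0.61, adjusted p = 0.000181). Ptprc, the gene of the protein sorted against, rose by 2.77 ± 0.57 (adjusted p = 0.0012). The sum of 12 fibroblast markers was 7.96 to 66.8 CPM in normal lung and 430 to 1105 CPM in metastases, and 6 of 7 tested rose, including Pdgfra (6.60 ± 0.85, adjusted p = 6.66e-06), Dcn, Col3a1 (3.87 ± 0.78, adjusted p = 0.00102) and Col5a1 (3.61 ± 0.80, adjusted p = 0.0022). Col1a1, Col1a2, Col3a1, Col5a1, Dcn and Lum are also in the list of matrix partners, so the results of these lists are not separate. The sum of 12 macrophage markers was 71.2 to 237 CPM and 1049 to 2005 CPM, and 6 of 9 tested rose, including the complement gene C1qb (6.47 ± 1.56, adjusted p = 0.00439), the Fc receptor gene Fcgr1 (5.37 ± 1.33, adjusted p = 0.00529), Itgam (5.31 ± 0.68, adjusted p = 6.35e-06) and Lyz2 (3.93 ± 0.61, adjusted p = 6.84e-05). Cd68 (edgeR adjusted p = 0.165), Csf1r (0.287) and Mrc1 (0.0919) did not pass. Metastasis replicate 1 held 697 CPM of Itgam and 210 CPM of Lyz2. It held only 0.271 CPM of C1qb, 0.372 CPM of Fcgr1 and 0.88 CPM of Csf1r.

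For the next lists too, the shares over all tested genes were 12.0% higher and 8.22% lower. Of 12 epithelial markers only 2 could be tested. Krt8, a simple epithelial keratin, rose (6.47 ± 1.20, edgeR adjusted p = 0.000497), the list's sum was 1.11 to 13.4 CPM against 10.3 to 55.1 CPM, Krt5 and Cldn3 were at 0 in all libraries and Cldn4 in all of the metastases. Krt19, not tested, averaged 0.129 CPM in normal lung and 4.77 CPM in metastases. The sum of 11 pericyte and smooth muscle markers was 11.9 to 68.9 CPM and 12.8 to 102 CPM, with 0 of 5 tested higher and 1, Rgs5, lower (-5.84 ± 1.74, edgeR adjusted p = 0.0191). Pdgfrb (2.28 ± 1.33, adjusted p = 0.255) and Myh11 (-2.46 ± 1.22, adjusted p = 0.172) did not pass. Of 7 tested lung epithelial genes, Lamp3 rose with an adjusted p at the threshold (2.65 ± 0.95, edgeR adjusted p = 0.04998), and Scgb1a1 (-5.74 ± 1.21, adjusted p = 0.00245) and Hopx (-2.24 ± 0.65, adjusted p = 0.0158) fell. The 1 tested mesothelial gene did not pass (summed level of the list 0.108 to 2.39 CPM in normal lung and 0.546 to 43.6 CPM in metastases). The most abundant genes of that list, Upk3b (0.0346 and 5.19 CPM) and Lrrn4 (0.0298 and 5.11 CPM, normal mean first), were not tested. All 12 cell division genes rose, most in Birc5 (6.97 ± 1.11, edgeR adjusted p = 9.1e-05) and Bub1 (6.93 ± 0.61, adjusted p = 2.75e-08), with sums of 36.4 to 165 CPM and 2012 to 3755 CPM. Spp1, Tnc, Tgfbi and Fstl1 and the fibroblast, macrophage and cell division sums were higher in all metastasis libraries than in all normal ones. Among metastasis libraries Tnc and Tgfbi were highest in replicate 2 and Spp1 was lowest there (332 CPM). The sums of fibroblast (1105 CPM), macrophage (2005 CPM), pericyte and smooth muscle (102 CPM), epithelial (55.1 CPM) and mesothelial markers (43.6 CPM) were also highest in that library. The cell division sum was lowest there (2012 CPM). Replicate 3 had the next highest fibroblast (699.7 CPM) and macrophage (1753 CPM) sums but the lowest Tnc (64.3 CPM). Replicate 4 had the lowest fibroblast sum (430.1 CPM), with 177 CPM of Tnc. The part of these cell types in the members' values was not tested.

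Gene counts per library were 41 to 79.7 M in normal lung and 21.7 to 54.3 M in metastases. Reads that were assigned to no counted feature made up 55.4 to 64.7% in normal lung and 57.9 to 73.7% in metastases. Which features were counted is not given, so such reads need not lie outside genes. Ambiguous reads and reads without a unique alignment were further left out. The share counted on genes was 24.3 to 34.4% in normal lung and 14.6 to 28.2% in metastases. Counting error of the 4 risen members was taken from the 95% exact binomial interval of a library, averaged over its lower and upper sides. The widest reached 13.9% of the level for Spp1, 27.0% for Tnc, 39.8% for Tgfbi and 6.07% for Fstl1. Such intervals cover counting error only. In GENCODE M21, exons of Tnc, Thbs1 and Sparcl1 overlap the span of a gene on the other strand. Exons of Spp1 overlap the span of a gene on the same strand. Whether exons of those other genes overlap was not examined, so the members' counts may include or lose such reads.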

How the data were processed

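RNA of sorted CD31+/CD45- mouse cells was measured in 5 normal lung and 5 metastasis libraries. The authors deposited counts as whole numbers, unscaled, 1 value per gene. The authors' FPKM (fragments scaled by length and depth) cover 24460 genes. Tools listed in the submitters' processing notes are DESeq2 1.6.3, HTSeq 0.6.1, Cufflinks 2.2.1 and TopHat2 2.0.13, with the builds mm10 and GRCm38. Which annotation was used, and whether strand was, is not given in the sources used here.

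Counts of 24538 genes were filtered with filterByExpr, scaled by TMM and compared with edgeR 4.0.16 (R 4.3.3; quasi-likelihood F test, robust, two-sided, no covariate), with Benjamini-Hochberg adjustment over 11823 genes and a threshold of 0.05. The SE of a log2 fold change is its size divided by the root of F. The fit was checked on simulated data. Within-library ratios were compared by exact permutation (SciPy 1.17.1, 252 splits). Alternatives used DESeq2 1.42.0, limma 3.58.1, other scalings and filters, library sets and omitted libraries. The tests of the difference between library sets and the repeats of the other lists' counts were chosen after seeing the data.

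The members and the 12 lists beside them were chosen with earlier results of these data known. All members are named. From each list the 2 largest called changes each way are named, with the 2 most abundant genes of marker lists. For each member the 3 genes of nearest pattern are named, except 2 genes that are not reported here. Nothing in the labels says whether normal libraries came from separate animals, so p-values measure only the spread between these samples. Gene positions are from GENCODE M21. Python 3.11.15 with matplotlib 3.10.9 made the plots.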

Additional observations from a re-analysis of the deposited data

Results flagged for a closer look

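Thbs2 in normal lung held 1 library far from the other 4. Replicate 5 had 33 counts (0.891 CPM) against 0 to 1 count in the others. The gap in log2 CPM was 0.849 of the whole range, above Dixon's critical value of 0.71 for 5 libraries. Of 24 groups of values examined this was the 1 that passed. Chance passes about 5% of groups of normally distributed values. That rate does not describe this group, since normal replicates 1 to 3 had 0 counts and the same log2 CPM of -4.475.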

How the results depend on the processing

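Of 24 other settings, 23 called 4 or 5 members higher, and scaling to 19 pan-endothelial genes called 7. None called a member lower. That scaling moved the median of all tested genes to 2.74 and library totals moved it to 0.32. Relative to it, Spp1 was 6.48 and 6.37, and Sparcl1 -1.17 and -0.62. It also called 13 receptors and 5 other matricellular genes higher and 0 of either lower, and it called 6960 genes higher and 22 lower, so 99.7% of calls were higher against 59.4%. Library totals gave 67.6%. Thbs1 passed under 9 settings (1.83 to 4.61 over all 24). Sparc passed with library totals (1.16, adjusted p = 0.013) and with pan-endothelial scaling (3.48), and Postn with the latter (3.40).

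Counts in the other lists varied. DESeq2 gave 2 receptors lower and 4 other matricellular genes higher and 5 lower. Libraries 1 and 2 alone gave 7 matrix partners higher, 0 receptors and 0 other matricellular genes lower. A threshold of 0.01, and leaving out metastasis libraries 4 and 5, each gave 1 receptor and 1 other matricellular gene lower. Matrix partners lower numbered 1 with library totals, no filter, limma on FPKM with either pseudocount or the term for library set. Other matricellular genes higher numbered 2 without a filter and 0 with a filter of 1 CPM or limma, and 1 was lower with library totals. Leaving out each library gave 4 to 5 members higher, 2 to 5 receptors lower, 0 to 2 matrix partners lower, and 1 to 2 other matricellular genes higher and lower. The Sparcl1 to Sparc difference was -2.12 to -1.44 (exact permutation, adjusted p from 0.0238 to 0.119).

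What the replicate number stands for is not given in the labels. Same-numbered samples correlated at 0.000682 to 0.142, and 3 of 5 correlated best with their own number. Whether same-numbered samples are pairs was not tested. With the replicate block, 5 members were higher (Thbs1 2.37, adjusted p = 5.32e-05; Tgfbi 5.39), 2 matrix partners lower and 0 other matricellular genes higher, with 1435 genes higher and 1180 lower against 1420 and 972. DESeq2 made 2380 and 1661 calls, libraries 1 and 2 alone 487 and 201, and a threshold of 0.01 made 869 and 453. Depth limits Thbs2 and, in some libraries, Postn and Tgfbi.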
